A study of Homo sapiens with 12 samples.

Results

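SFTPB, NAPSA, ABCA3 and SLC34A2, 4 genes of the alveolar surfactant system, were examined for H3K27ac, the histone H3 acetylation that is found at promoters and enhancers in use. A window was taken around each gene, made of its span in the hg19 build and 30 kb on either side, and the peaks in it were taken from the 8 peak lists of the unmodified cell lines. The spans were chromosome 2, 85884437 to 85895864 for SFTPB, chromosome 19, 50861734 to 50869087 for NAPSA, chromosome 16, 2325882 to 2390747 for ABCA3 and chromosome 4, 25657435 to 25680370 for SLC34A2. The 8 lists held 70 peaks in the 4 windows, which merged into 16 regions of the 70648 regions found over all chromosomes used. The question was whether the lung adenocarcinoma lines carry H3K27ac at alveolar genes that the other lines lack.

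The lung adenocarcinoma lines were H358 and H2009, with 2 libraries each. They were set against HCC95, a squamous cell lung carcinoma line (1 library), Ishikawa, an endometrial carcinoma line (2 libraries), and BICR31 (1 library), which the design text places among head and neck squamous lines although its sample label reads lung adenocarcinoma. All are established human cancer lines, grown in the same serum-containing medium without treatment and precipitated with the same H3K27ac antibody, and the labels give no genotype or age. A further 4 libraries of H2009 labelled e3KRAB1, e3KRAB2, Empty and Control, terms that the labels do not expand, were looked at for these windows alone. Whether the replicates came from separate cultures is not stated in the labels, so part of the spread between libraries may be technical. The p-values were taken over line means and cover the spread among these 5 lines alone.

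Alveolar type 2 cells of the lung make surfactant, a film of lipid and protein that lowers surface tension in the air spaces, and store it in lamellar bodies before release. SFTPB encodes surfactant protein B, which spreads the lipid film, and NAPSA encodes napsin A, an aspartic protease that helps to cut the surfactant protein B precursor and serves pathologists as a marker of lung adenocarcinoma. ABCA3 encodes the transporter that loads phospholipid into lamellar bodies. SLC34A2 encodes a sodium-dependent phosphate transporter of the type 2 cell surface. The transcription factors NKX2-1 and FOXA are known activators of surfactant genes.

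The sequence before the first start that RefSeq lists for each gene is shown as promoter context. Each run covers the 250 bases before that start in GRCh38.p14, 5′ to 3′ on the strand of the gene, at chr2:85668742-85668991 (minus strand) for SFTPB, chr19:50369303-50369552 (minus strand) for NAPSA, chr16:2340729-2340978 (minus strand) for ABCA3 and chr4:25655601-25655850 (plus strand) for SLC34A2. These positions belong to GRCh38.p14, whereas all peak positions belong to hg19. Whether each run stands before the start from which peaks are measured was therefore not tested. For NAPSA, whose listed starts lie 3663 bp apart, the run may belong to a start other than the measured one. Capitals mark matches, on either strand, to the NKX2-1 consensus GCNCTNNAG, the FOXA core TGTTTNC, the CEBP core TTGCNNAA or the AP-1 core TGANTCA, where N is any base.
SFTPB: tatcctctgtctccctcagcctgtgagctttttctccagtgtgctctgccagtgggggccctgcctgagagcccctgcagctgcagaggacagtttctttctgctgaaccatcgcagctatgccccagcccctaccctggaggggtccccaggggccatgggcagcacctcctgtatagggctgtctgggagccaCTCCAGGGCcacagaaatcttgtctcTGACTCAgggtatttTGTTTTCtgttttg
NAPSA: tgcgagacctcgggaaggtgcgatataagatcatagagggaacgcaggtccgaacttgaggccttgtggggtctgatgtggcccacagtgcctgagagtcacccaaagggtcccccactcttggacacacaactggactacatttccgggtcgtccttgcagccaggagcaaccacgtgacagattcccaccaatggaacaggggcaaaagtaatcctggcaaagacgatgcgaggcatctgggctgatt
ABCA3: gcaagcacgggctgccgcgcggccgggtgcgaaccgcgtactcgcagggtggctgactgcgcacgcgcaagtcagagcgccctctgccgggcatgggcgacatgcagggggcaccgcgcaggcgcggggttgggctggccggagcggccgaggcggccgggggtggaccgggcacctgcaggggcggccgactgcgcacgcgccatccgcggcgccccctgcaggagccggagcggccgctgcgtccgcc
SLC34A2: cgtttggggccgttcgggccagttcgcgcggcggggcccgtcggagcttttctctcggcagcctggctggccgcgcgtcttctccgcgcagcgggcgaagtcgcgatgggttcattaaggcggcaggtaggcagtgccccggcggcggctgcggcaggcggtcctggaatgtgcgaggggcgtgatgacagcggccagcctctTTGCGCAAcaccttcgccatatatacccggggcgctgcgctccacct
The SFTPB stretch held 1 match each to the NKX2-1, FOXA and AP-1 letters, with no overlap between them. The SLC34A2 stretch held 1 CEBP match, and the NAPSA and ABCA3 stretches held 0 matches to any of the 4 motifs. RefSeq lists a further SFTPB start 542 bp downstream of the first, and the 250 bases before it held 4 NKX2-1 matches, of which CTGGAGGGC, GCTCTTCAG and CTTCAGAGC overlap in a run and CTACAGAGC stands apart. The further SLC34A2 start, 613 bp downstream of its first, had 1 FOXA match (TGTTTGC) in the 250 bases before it, and the further NAPSA start had 0 matches to any of the 4 motifs. Over all 35116 promoters of the table, the 250 bases before the start held an NKX2-1 match in 14.3%, a FOXA match in 15.5%, a CEBP match in 9.05% and an AP-1 match in 6.57%. A match of letters is a description of the sequence and not a binding site.

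SFTPB had no peak in its window in any of the 8 libraries. Both H358 and both H2009 libraries were at 0 peaks in the 71.4 kb window, and so were HCC95, both Ishikawa libraries and BICR31. The nearest peak lay 40.9 and 40.8 kb from the gene in H358 and 45.3 and 40.7 kb in H2009, against 40.6 kb for HCC95, 40.1 and 40.1 kb for Ishikawa and 36.7 kb for BICR31. It was on the downstream side in every one of these libraries except BICR31, where it was upstream. USP39 and C2orf68 are the protein-coding genes next to SFTPB on the downstream side in the RefSeq gene order, and GNLY is next upstream. A missing peak means that none passed the authors' threshold, and read depth is unknown, so weaker acetylation at SFTPB was not detectable from these lists. The lung adenocarcinoma lines and the other lines could not be told apart at this gene.

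SLC34A2 had peaks in its window only outside the lung adenocarcinoma lines. H358 and H2009 had 0 peaks in all 4 libraries and HCC95 had 0, while Ishikawa had 0 in replicate 1 and 1 in replicate 2, and BICR31 had 1. The Ishikawa peak was 5639 bp wide and covered the start of the gene (chromosome 4, 25654828 to 25660466), with an authors' score at percentile 35.3 of its own list. That peak was not replicated, since the nearest peak of Ishikawa replicate 1 lay 33.2 kb upstream, just outside the window. The BICR31 peak was 734 bp wide and lay 3.18 to 3.91 kb upstream of the start (chromosome 4, 25653523 to 25654256), at percentile 42.5 of its list. In H358 the nearest peak was 183 and 104 kb away and in H2009 165 and 165 kb, against 136 kb in HCC95. Neither SLC34A2 peak stood in the higher-ranked 50% of its list. Over all chromosomes, 2127 regions (3.01%) were found in Ishikawa replicate 2 alone and 15493 (21.9%) in BICR31 alone.

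**Figure D1:**
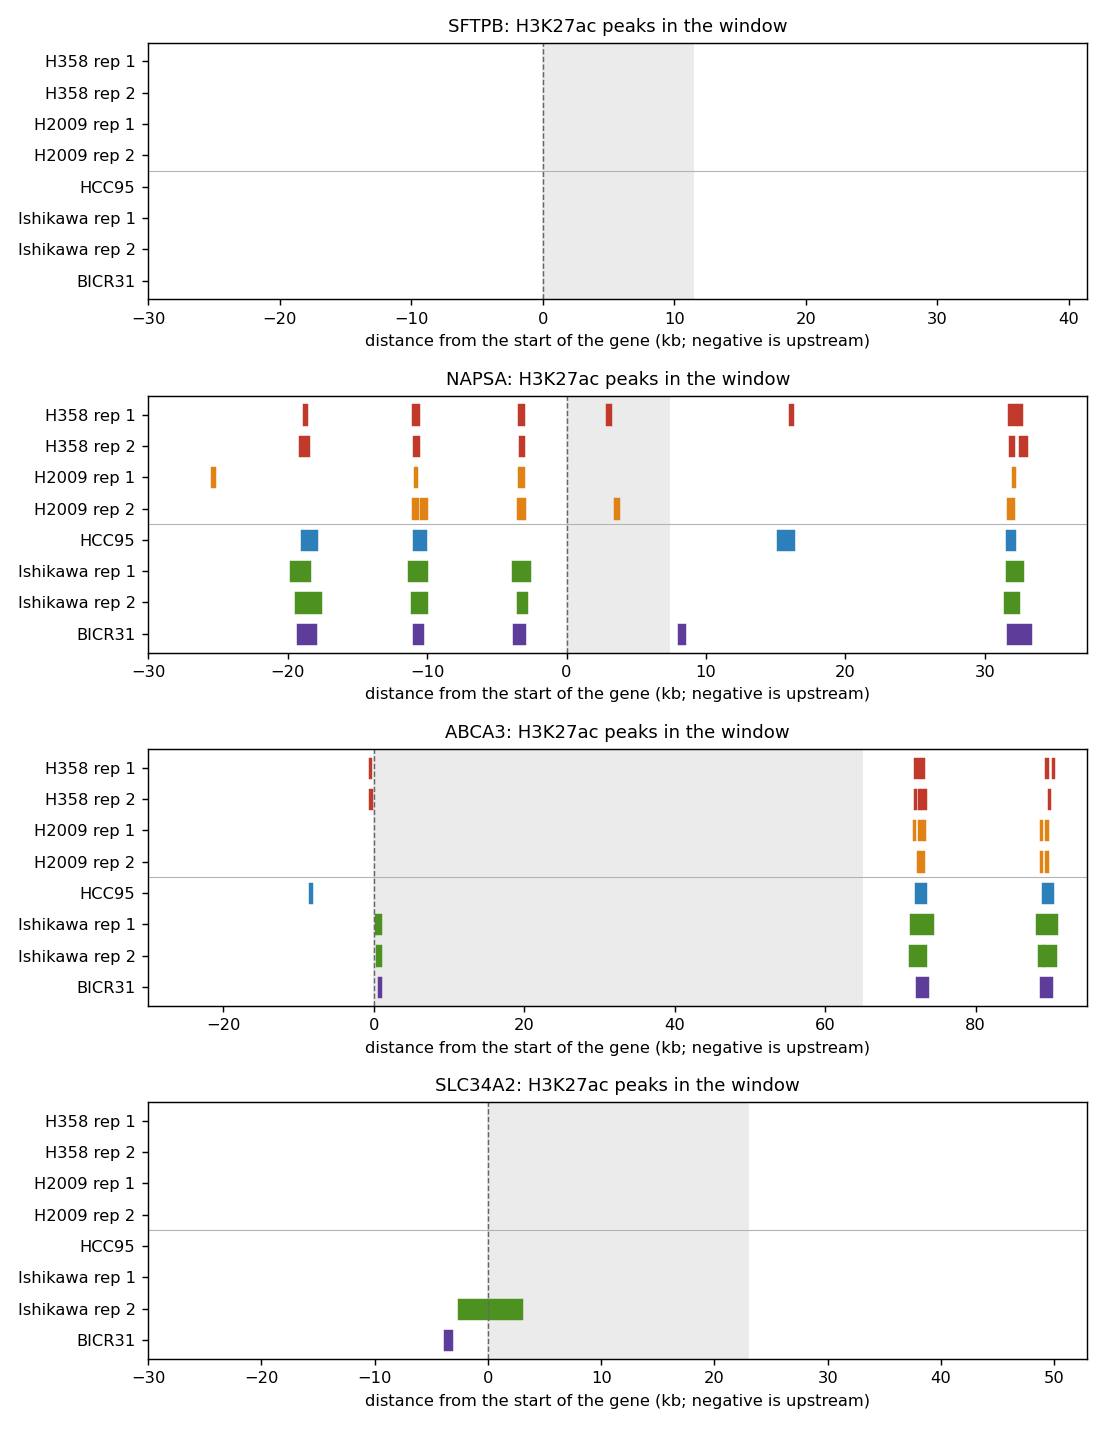
H3K27ac peaks of the 8 libraries (rows, H358 and H2009 above the line) in the windows of SFTPB, NAPSA, ABCA3 and SLC34A2. The horizontal axis is the distance in kb from the start of the gene, negative upstream, bars are peaks drawn to scale, grey is the span of the gene and the dashed line its start. SFTPB is empty in all rows, SLC34A2 has 1 peak in Ishikawa replicate 2 and 1 in BICR31, and the peaks at the ABCA3 start lie on opposite sides of it in H358 and in Ishikawa and BICR31.

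ABCA3 had a peak just before its start in H358 alone and a peak just after it in Ishikawa and BICR31. In H358 the peaks lay 316 to 667 bp upstream in replicate 1 and 268 to 605 bp upstream in replicate 2, and together made the region at chromosome 16, 2391015 to 2391414. Their fold enrichment by the authors was 8.36 and 8.63, percentiles 93.1 and 94.9 of the H358 lists, so both were strong peaks of their own lists. H2009, the other lung adenocarcinoma line, had no peak within 2 kb of the start in either library.

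The downstream side of the start was marked in other lines. Ishikawa peaks lay 172 to 970 bp after the start in replicate 1 and 341 to 1002 bp in replicate 2, and the BICR31 peak lay 599 to 991 bp after it, all inside the gene and in 1 region at chromosome 16, 2389745 to 2390575. These stood at percentiles 46.3 and 43.7 of the Ishikawa lists and 66.9 of the BICR31 list, so the Ishikawa peaks ranked below the middle of their lists. HCC95 had no peak within 2 kb of the start; its peak nearest to the start lay 8.19 to 8.56 kb upstream. By presence of a peak within 2 kb, ABCA3 was therefore marked in H358 but not H2009, and in Ishikawa and BICR31 but not HCC95. Counted as libraries, which are not independent within a line, this was 2 of 4 lung adenocarcinoma libraries and 3 of 4 other libraries. The H358 pattern, a peak in both H358 libraries and no other, was that of 930 regions over all chromosomes (1.32% of regions), and the pattern of the downstream region that of 759 (1.07%).

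The remaining ABCA3 regions were shared by all lines and lay beyond the far end of the gene. Each of the 8 libraries had peaks in the regions 71.2 to 74.3 kb and 88.1 to 90.8 kb downstream of the start (chromosome 16, 2316461 to 2319591 and 2299910 to 2302669). RNPS1, a splicing regulator gene, and then ECI1 are the next protein-coding genes on that side. No library of any line had a peak inside the 64.9 kb span of ABCA3 other than those in the first 1002 bp.

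NAPSA had no peak within 2 kb of the start of its hg19 span in any library. A region farther upstream was acetylated in 4 of the 5 lines. At chromosome 19, 50871731 to 50873031, 2.64 to 3.94 kb upstream of the start, peaks were found in both libraries of H358, H2009 and Ishikawa and in BICR31, and not in HCC95. The peak stood at percentiles 76.8 and 93.8 in H358 and 79.4 and 48.6 in H2009, against 54.5 and 51.5 in Ishikawa and 53.8 in BICR31. Both H358 peaks and that of H2009 replicate 1 ranked above those of Ishikawa and BICR31, while that of H2009 replicate 2 ranked below them. Ranks come from lists of different lengths and forms and are given as a description only. RefSeq lists a pair of NAPSA starts 3663 bp apart in GRCh38.p14, a spacing within the 2.64 to 3.94 kb range of this region. Whether the upstream start falls in this region was not tested, since no annotation of hg19 was at hand. The absence of a start peak therefore holds for the span start only. The same library pattern, every library but HCC95, was that of 657 regions over all chromosomes (0.930%).

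Inside the NAPSA gene, peaks occurred in lung adenocarcinoma libraries alone, and none was replicated. H358 replicate 1 had a peak 2.84 to 3.19 kb after the start (fold enrichment 5.68, percentile 59.1) and H2009 replicate 2 had one 3.42 to 3.73 kb after it (5.06, percentile 42.6). These peaks did not overlap each other, and the other replicate of each line had none in the gene. Over all chromosomes, 2470 regions (3.50%) were found in H358 replicate 1 alone and 2200 (3.11%) in H2009 replicate 2 alone. HCC95, Ishikawa and BICR31 had 0 peaks inside the gene; the BICR31 peak nearest to it lay 664 bp beyond its far end. Narrow and broad peak forms differ between these groups of lists, and the part of peak calling in this difference cannot be told apart from the type of line.

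A region farther upstream was common to all lines and held the highest-ranked NAPSA peak of 7 of the 8 libraries, the exception being HCC95. All 8 libraries had a peak in the region 10.0 to 11.4 kb upstream (chromosome 19, 50879093 to 50880453), at percentiles 93.5 and 99.5 in H358 and 85.4 and 97.4 in H2009, against 64.1 for HCC95, 67.7 and 86.7 for Ishikawa and 99.9 for BICR31. NR1H2, a nuclear receptor gene for oxysterols, is the next protein-coding gene on that side, followed by POLD1, the catalytic subunit of DNA polymerase delta. A region 17.6 to 19.8 kb upstream (chromosome 19, 50886681 to 50888905) was found in both H358 libraries, HCC95, both Ishikawa libraries and BICR31, and in neither H2009 library, a pattern of 277 regions over all chromosomes (0.392%). On the downstream side, the region 31.4 to 33.3 kb from the start (chromosome 19, 50835804 to 50837706) was again found in each of the 8 libraries. The other NAPSA regions were found in 1 library each, apart from 1 shared by H358 replicate 1 and HCC95.

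**Figure D2:**
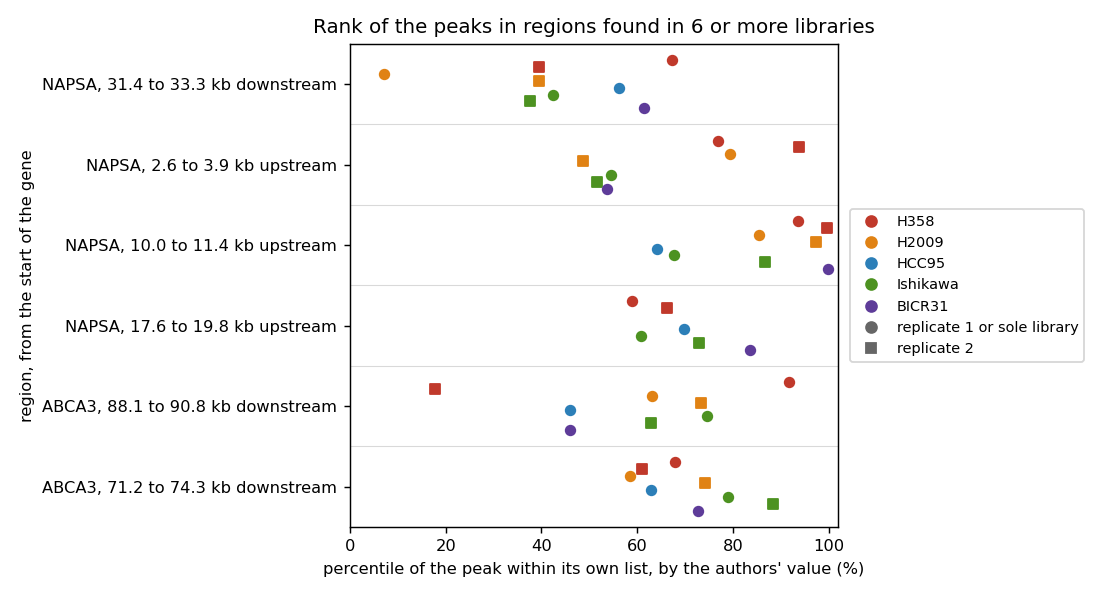
Percentile of the peak within its own list, by the authors' fold enrichment or, for Ishikawa, score (horizontal axis, in percent), for each of the 6 regions found in 6 or more libraries (vertical axis, by distance from the start of the gene). Each point is 1 library, coloured by line, with the highest peak taken where a library had several. In the NAPSA region 10.0 to 11.4 kb upstream, H358, H2009 and BICR31 lie at 85.4 or above, as does Ishikawa replicate 2 at 86.7.

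Taking the 16 regions of the 4 windows together, 0 had a peak in every H358 and H2009 library and in no library of another line. Over all chromosomes this class held 351 of 70648 regions, or 0.497%, so with 16 regions a count of 0 is near the background share. The mirror class, found in every library of HCC95, Ishikawa and BICR31 and in no lung adenocarcinoma library, also held 0 regions, beside 0.637% of all regions. A peak in every library was found for 4 of the 16 regions (25%), beside 12.1% of all regions, and none of the 4 lay within 2 kb of the start of SFTPB, NAPSA, ABCA3 or SLC34A2. No peak in any lung adenocarcinoma library was found for 5 of the 16 (31.2%), beside 46.3%, and both SLC34A2 regions were among them. A peak in just 1 of the 8 libraries was found for 7 of the 16 (43.8%), beside 47.7%. Replicates shared 7 of 9 regions in H358, beside 58.2% of its regions over all chromosomes, 5 of 7 in H2009, beside 56.1%, and 7 of 8 in Ishikawa, beside 74.8%.

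The share of H3K27ac in each window was measured as called bases in the window per Mb of called bases in the list, because median peak width ran from 347 bp in H2009 to 1507 bp in Ishikawa. For NAPSA the share was 234 and 213 in H358 and 115 and 202 in H2009, against 183 for HCC95, 126 and 148 for Ishikawa and 127 for BICR31. By this share both H358 libraries lay above all others. H2009 replicate 1 was the lowest of the 8 and H2009 replicate 2 the highest after H358. As line means, H358 had 223 ± 15.0 and H2009 159 ± 61.4, against 183 for HCC95, 137 ± 15.4 for Ishikawa and 127 for BICR31 (SD, n = 2 libraries where given). The mean over the lung adenocarcinoma lines exceeded that over the other lines by 42.1 called bases per Mb, a difference within the spread of the lines (two-sided exact permutation test over the 5 lines, p = 0.3). The regions 10.0 to 11.4 kb upstream and 31.4 to 33.3 kb downstream, found in every library, enter this share. The NAPSA share therefore does not measure NAPSA alone. With 10 ways to choose 2 of 5 lines the smallest p is 0.1, so no difference could pass a threshold of 0.05. In the higher-ranked 50% of each list the NAPSA difference turned to -33.9. It was 9.47 with BICR31 grouped as its sample label has it, 14.4 to 19.6 with lists of equal length or a shorter flank, and 20.3 to 63.8 when 1 library at a time was left out.

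For ABCA3 the share was 191 and 147 in H358 and 179 and 145 in H2009, against 148 for HCC95, 159 and 159 for Ishikawa and 86.3 for BICR31. Single libraries of the lung adenocarcinoma lines lay above and below those of HCC95 and Ishikawa, and BICR31 was lowest. Undivided, peaks covered 1.80 and 1.41% of the window for H358 and 1.55 and 1.33% for H2009. The other lists again had more, at 2.53% (HCC95), 5.29 and 4.13% (Ishikawa) and 2.81% (BICR31). Peaks per 10000 peaks of the list kept the direction of the share, with a difference of 0.471. All H2009 peaks of this window lay in the regions beyond the far end of the gene that every library shared. The other lines had peaks in those regions as well, so the share does not measure ABCA3 alone. The difference was 34.2 called bases per Mb (exact permutation p = 0.4). Without BICR31 it was 11.8, and within the gene span alone it was -9.84. For SLC34A2 the share was 0 in all H358 and H2009 libraries and in HCC95, against 0 and 174 in Ishikawa and 18.1 in BICR31, a difference of -35.0 (exact permutation p = 0.7) that was -6.02 without Ishikawa replicate 2. SFTPB was at 0 in all 8 libraries and had nothing to test. The shares of NAPSA, ABCA3 and SLC34A2 were the only values tested, and p-values were not adjusted.

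**Figure D3:**
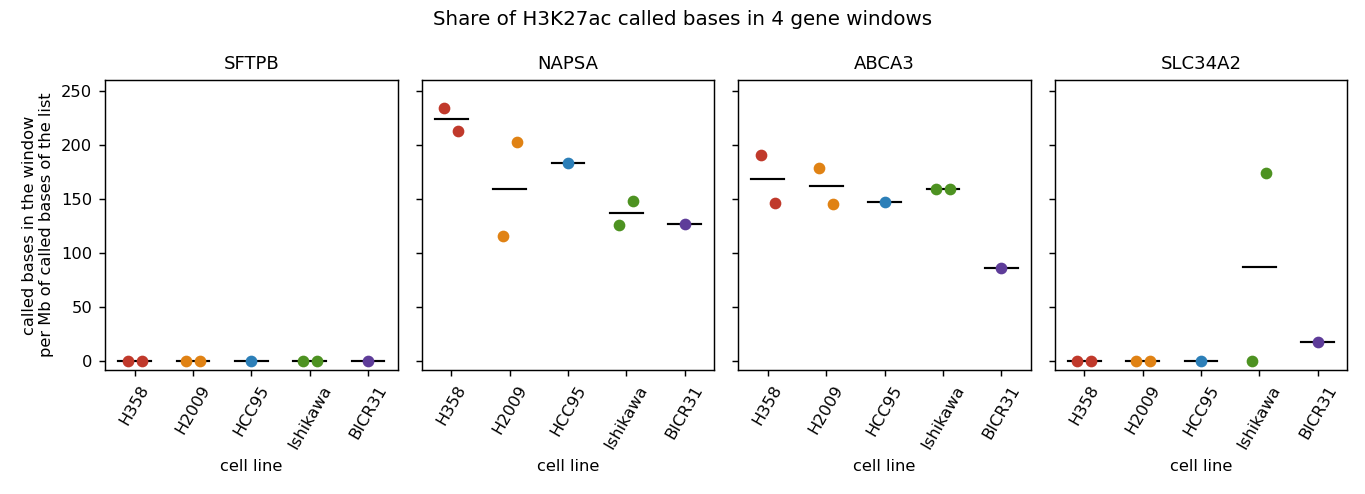
Called H3K27ac bases in each gene window per Mb of called bases in the list (vertical axis), by cell line (horizontal axis), with 1 point per library and a bar at the line mean. H358 and H2009 stand at 0 for SFTPB and SLC34A2, and their libraries run from 115 to 234 for NAPSA and from 145 to 191 for ABCA3; both H358 points lie above all others for NAPSA, while the H2009 points overlap those of the other lines.

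The 4 further H2009 libraries, whose lists held 1375 to 3250 peaks against 26412 and 26887 in the H2009 replicates, added peaks at NAPSA only. The e3KRAB1 list had 1 peak in the common NAPSA region 10.0 to 11.4 kb upstream, at percentile 98.7 of its list, and Control had 1 there at percentile 59.0. The list labelled e3KRAB2, whose peak names carry a control tag that goes against its label, and the Empty list had 0 peaks in any of the 4 windows. No list of the 4 had a peak in the SFTPB, ABCA3 or SLC34A2 windows. With lists this short no difference among these libraries was detectable in these windows.

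The window limit of 30 kb left few peaks near it. The outermost peak inside began 25.3 kb beyond the far end of ABCA3, in H358 replicate 1, and the nearest outside were those of Ishikawa 33.2 and 34.1 kb from SLC34A2 and of HCC95 34.0 kb from NAPSA.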

How the data were processed

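H3K27ac peak lists of human cancer cell lines were analysed, 1 list per library. BWA and the hg19 build are named in the submitters' processing notes; the aligner version, the control used and the treatment of replicates were not given in the sources used here. The deposited lists came in 3 forms: 10-column narrowPeak for H358 and H2009, 9-column broadPeak for HCC95 and BICR31, and 5 columns for Ishikawa with peak names that begin with MACS. The authors' deposited fold enrichment ratio was used to rank narrowPeak and broadPeak peaks within a list, and the deposited score, starting at 50, to rank Ishikawa peaks. The deposited −log10 p and −log10 q values (lowest −log10 q 1.31 in narrowPeak and 1.00 in broadPeak lists) and the summit offsets, an other kind of deposited value, were not used to rank. File form moves with the type of line, so the effects of type and of peak calling cannot be told apart. Peak lists hold no read numbers and depth is unknown; list lengths stand in for it, at 26412 to 26954 peaks in H358 and H2009, against 23400 for HCC95, 24384 and 27311 for Ishikawa and 42148 for BICR31.

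The autosomes and X were kept (224362 of 224893 peaks in the 8 lists) and given as 1-based positions. Overlapping peaks (minimum 1 bp) of the 8 lists were merged into regions, and a line had a region when every library of it had a peak there. The start of a gene was the end of its hg19 span given by its strand in RefSeq, and a start peak lay within 2 kb of it. Percentiles are the share of peaks of a list with a value at or below that of the peak. Line means of the window shares were compared by two-sided exact permutation over lines. Region counting and the permutation were tested on simulated data. Gene order and promoter sequences came from RefSeq (GRCh38.p14), in which all 4 genes matched by symbol; its positions were not set against the peaks. Planned markers of squamous and endometrial cells were not used here, since no annotation of hg19 was at hand. All 4 genes were named, with the regions at their starts, those found in every library or in 1 type of line, and the widest; other regions were named after their values had been seen. The genes, windows and lists were chosen with earlier results of these data known. Alternatives were another threshold, list length, flank, overlap, grouping and measure, and leaving out each library. Python 3.11.15 with numpy 2.4.6 and pandas 2.3.3 was used.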

Additional observations from a re-analysis of the deposited data

How the results depend on the processing

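The count of 0 regions found in the lung adenocarcinoma lines alone was 0 under each alternative run. A shorter flank or none could only remove regions, and a count of 0 is near the background share of 0.497%. For SFTPB the alternatives could only remove peaks from a window that had 0, so they say nothing of its stability. In the higher-ranked 50% of peaks the NAPSA share difference was -33.9 called bases per Mb, the SLC34A2 difference 0, regions of every library numbered 2 and regions of no lung adenocarcinoma library 2, and start peaks were found in 1 other-line library at ABCA3 and 0 at SLC34A2; fewer peaks enter there by construction. The ABCA3 difference was -9.84 without flanks, where no H358, H2009 or HCC95 library had a peak inside the gene span. It was -14.5 with BICR31, whose ABCA3 share was 86.3, grouped as lung adenocarcinoma. Under that grouping 2 regions had no lung adenocarcinoma library. When 50% of a region had to be covered, 0 regions belonged to every library, 1 to all the other lines alone and 10 to no lung adenocarcinoma library. With lists of equal length the last class held 3. Shares over all regions are not given for the alternatives, so region counts under them have no background beside them. Median peak width was 347 to 382 bp in H358 and H2009, against 814 to 1507 bp in the other lists. Its part in the counts at 50% cover was not tested. A flank of 10 kb left 1 region of every library, and no flank left 4 regions in all, 0 of every library and 2 of no lung adenocarcinoma library. A start zone of 5 kb gave NAPSA 4 lung adenocarcinoma and 3 other libraries, and SLC34A2 2 other libraries. Leaving out 1 library at a time gave differences of 20.3 to 63.8 for NAPSA (without H2009 replicate 2 and replicate 1), 11.8 to 45.2 for ABCA3 (lowest without BICR31) and -63.9 to -6.02 for SLC34A2 (without Ishikawa replicate 1 and replicate 2), 3 to 6 regions of no lung adenocarcinoma library (3 without BICR31) and 0 to 1 of the other lines alone (1 without HCC95). No p of the exact permutation test fell below 0.1. This was fixed in advance, since 10 splits of 5 lines allow no smaller p, and fewer lines allow fewer splits.

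Replicate numbers are shared by H358, H2009 and Ishikawa only. A replicate block over these, without HCC95 and BICR31, gave differences of 54.0 for NAPSA, 6.03 for ABCA3, -86.8 for SLC34A2 and 0 for SFTPB, with no test. Deviations of same-numbered libraries over all regions correlated at 0.00050 to 0.0034, which gave no sign of pairing. Peak lists cut at a threshold and of different forms cannot exclude pairing.

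Peak lists limit what can be seen: a region under the authors' threshold is absent from them, read depth is unknown, and HCC95 and BICR31 have 1 library each, so that their own regions are not replicated.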
